A study of Mus musculus with 6 samples.

Results

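Bone morphogenetic protein (BMP) ligands and the secreted proteins that bind and block them were followed in dermal cells from the skin of neonatal C57BL/6 mice. The set held 10 of the 19938 genes tested: the ligand genes Bmp2, Bmp4, Bmp5, Bmp6 and Bmp7 and the antagonist genes Nog, Grem1, Chrdl1, Chrdl2 and Fst. They were taken by gene symbol, and each was read by 1 probe set that carried that symbol alone. Total RNA was measured on 6 one-colour Affymetrix arrays after 2 days in culture. The 3 arrays labelled FR came from cells given forskolin and RepSox, each at 20 µM, and the 3 arrays labelled DMSO, after the solvent, from cells cultured without the compounds. Both groups shared the same strain, the same neonatal skin source and the same time in culture. Nothing in the labels says whether the 3 samples of either group were separate cultures or animals. The p-values thus reflect the spread among these samples alone, and that spread may be technical. The comparison asks how the compound pair altered the expression of the BMP ligands and their blockers.

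BMPs are secreted dimers of the TGF-β superfamily that bind type I and type II serine/threonine kinase receptors and signal through SMAD1, SMAD5 and SMAD9 to genes such as the Id family. Antagonists act outside the cell by holding the ligand away from its receptors, and several are themselves induced by BMP signalling. In mouse skin, BMPs keep hair follicle stem cells at rest and noggin from the mesenchyme opposes them. Forskolin activates adenylyl cyclase. RepSox blocks the kinase of ALK5, a type I receptor for TGF-β and not for BMPs.

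Promoter sequence is shown for 3 of the genes: Bmp4, which had the largest rise of the set, Bmp6, a ligand gene that rose less than Bmp4, and Grem1, which did not pass the test. Of the 10 genes, 4 were matched in the promoter table used here, made from RefSeq on GRCm38.p6: these 3 and Bmp5. Each run below holds the 250 bases before the annotated start, written 5′ to 3′ on the gene's own strand. Capitals mark letters found by the motif search described after them.
Bmp4, chr14:46390670-46390919, minus strand: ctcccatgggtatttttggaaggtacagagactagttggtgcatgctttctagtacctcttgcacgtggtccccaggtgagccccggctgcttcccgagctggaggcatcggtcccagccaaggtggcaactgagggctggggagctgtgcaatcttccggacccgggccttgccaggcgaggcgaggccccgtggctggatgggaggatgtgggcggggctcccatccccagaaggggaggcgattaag
Bmp6, chr13:38345466-38345715, plus strand: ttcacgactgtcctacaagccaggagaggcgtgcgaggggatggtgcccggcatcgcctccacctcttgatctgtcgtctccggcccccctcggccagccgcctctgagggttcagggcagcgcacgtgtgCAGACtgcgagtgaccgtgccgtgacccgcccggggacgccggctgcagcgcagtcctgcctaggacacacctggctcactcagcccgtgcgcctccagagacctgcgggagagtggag
Grem1, chr2:113758649-113758898, minus strand: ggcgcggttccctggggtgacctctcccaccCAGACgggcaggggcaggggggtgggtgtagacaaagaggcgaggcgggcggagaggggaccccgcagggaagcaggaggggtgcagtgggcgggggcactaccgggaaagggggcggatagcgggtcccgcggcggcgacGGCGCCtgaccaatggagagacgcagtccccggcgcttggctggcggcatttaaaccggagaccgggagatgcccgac

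Strings of letters were searched on both strands of these windows. TGACGTCA, the full cyclic AMP response element, was in 1.55% of all 32851 windows, and its core TGACG, which lies within the full element, in 17.8%. GGCGCC, a string bound by BMP SMADs, was in 9.59%, and CAGAC, a SMAD box, in 42.2%. Neither TGACGTCA nor TGACG was in the windows of Bmp4, Bmp5, Bmp6 or Grem1. The Bmp4 window held no match to any string searched. CAGAC began at position -119 of the Bmp6 window and -219 of the Grem1 window, both on the gene's strand, and at position -134 of the Bmp5 window on the opposite strand. GGCGCC was found in the Grem1 window at position -78. G and C made up 63.2% of the Bmp4 window, 68.8% of the Bmp6 window, 72% of the Grem1 window and 42.8% of the Bmp5 window, against a median of 52.4% over all windows. These are matches of letters, and binding was not measured.

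Of the 10 genes, 8 rose with FR and 0 fell, at an adjusted p under 0.05. The 8 were Bmp4, Bmp5, Bmp6 and Bmp7 among the ligands and Nog, Chrdl1, Chrdl2 and Fst among the antagonists, so ligand and antagonist genes rose side by side. Over all genes tested, 27.9% passed, 13.4% higher and 14.5% lower. The median log2 change was 0.46 for the 5 ligand genes and 0.71 for the 5 antagonist genes, against 0.05 over all genes. The antagonist median is the change of Chrdl1, whose levels lay under the background guide given next in both groups. The same 8 genes had groups that did not overlap, as did 43.9% of all genes. With 3 arrays against 3, an exact permutation test of a single gene cannot give a two-sided p below 0.1, which these 8 genes reached, so the calls rest on the limma fit over all genes.

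Arrays within a group correlated with r from 0.993 to 0.996 over all genes and arrays of different groups from 0.972 to 0.978, genes not being independent replicates, and the number of arrays limits the precision. The table holds no detection calls, so the 1027 olfactory receptor genes, which encode odorant receptors of the nose, served as a guide to background. Their 95th percentile was 5.65 in DMSO and 5.92 in FR. Their median log2 change was 0.14, the central 95% of their changes lay from -0.17 to 0.45, and 9.93% of them were called higher. Dim probe sets therefore read slightly higher with FR. The part of this shift in the changes of dim genes was not tested.

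Bmp4, a ligand gene of dermal mesenchyme and the dermal papilla, changed most. Its log2 level was 6.52, 6.71 and 6.75 on the DMSO arrays and 8.31, 8.02 and 8.11 on the FR arrays. All FR arrays were at least 1.28 above the highest DMSO array. The level went from 6.66 ± 0.12 to 8.15 ± 0.15 (mean ± SD, n = 3). This was a rise of 2.81-fold, with a log2 change of 1.49 (SE 0.10) and an adjusted p of 1.99e-06. It was the 128th largest rise of the 19938 genes, and the only change of at least 2-fold among the 10. Its 95% interval, from 1.26 to 1.72, lay above the intervals of the other 9 genes.

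Bmp7, a ligand gene of the Bmp5, Bmp6 and Bmp7 subgroup, stood at 5.98, 5.77 and 5.73 in DMSO and at 6.60, 6.65 and 6.75 in FR. The groups were clearly apart, and the rise was 1.79-fold (log2 change 0.84, SE 0.09, adjusted p = 6.82e-05). The DMSO mean of Bmp7, 5.83, was not far above the background guide of 5.65, which limits this fold. Bmp6, from the same subgroup, read 6.07, 6.10 and 5.95 in DMSO and 6.63, 6.46 and 6.41 in FR. It rose 1.38-fold (log2 change 0.46, SE 0.09, adjusted p = 0.00343), with the lowest FR array 0.31 above the highest DMSO array.

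Bmp5 and Bmp2 were at the dim end. Bmp5 read 4.70, 4.42 and 4.65 in DMSO and 5.05, 4.92 and 4.80 in FR, under the background guide on all arrays, so no fold is given. The groups were 0.10 apart at their nearest arrays, and the log2 change of 0.33 (SE 0.10, adjusted p = 0.0326) lay inside the range of the olfactory receptor genes. The call of Bmp5 was lost without DMSO replicate 2 (adjusted p = 0.132), DMSO replicate 3 (0.0596), FR replicate 1 (0.0864) or FR replicate 2 (0.0706), and with quantile normalization (0.121), cyclic loess (0.182) or centring on array medians (0.074). Bmp2, which like Bmp4 belongs to the ligands with high affinity for the type I receptors BMPR1A and BMPR1B, read 5.39, 5.76 and 5.43 in DMSO and 5.74, 5.79 and 5.79 in FR. DMSO replicate 2 overlapped the FR arrays, and the log2 change of 0.25 (95% interval 0.02 to 0.48) did not pass (adjusted p = 0.103). Without that array the log2 change was 0.37 and passed (adjusted p = 0.0222), and both group means lay under the background guide of their group.

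**Figure D1:**
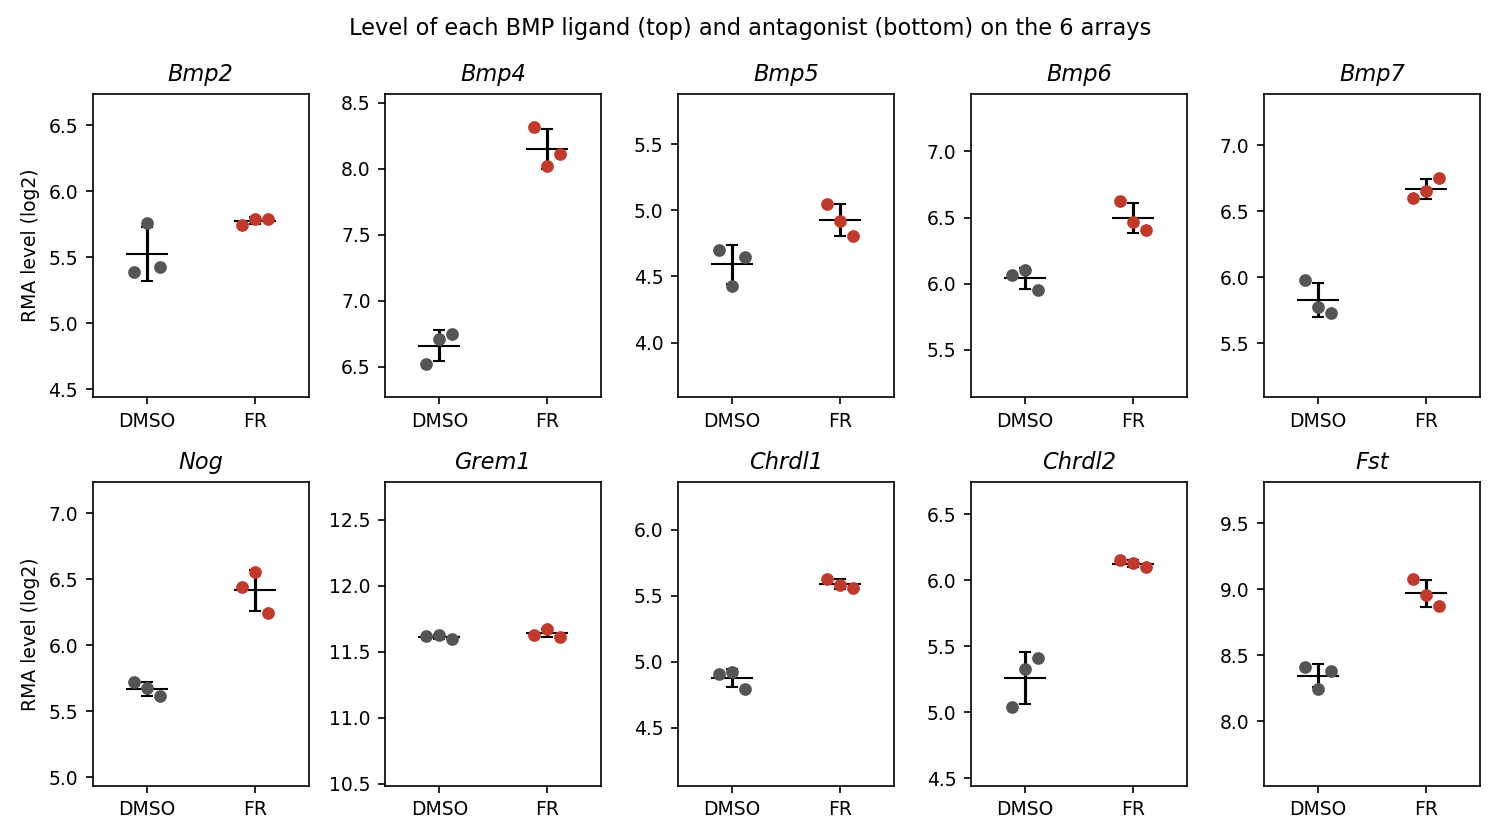
RMA level (log2, y axis) of each ligand gene in the top row and each antagonist gene in the bottom row, for DMSO and FR (x axis), with 1 point per array and bars for the mean ± SD (n = 3). All panels span the same height on the log2 scale; the FR arrays lie above the DMSO arrays in all panels but those of Bmp2 and Grem1.

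Among the antagonists, Nog encodes noggin, which binds BMP2, BMP4 and BMP7 and covers their receptor-binding faces. It read 5.72, 5.68 and 5.62 in DMSO, at the background guide, and 6.44, 6.56 and 6.25 in FR. All FR arrays lay above the guide. The rise between the group means was 1.68-fold (log2 change 0.74, SE 0.10, adjusted p = 0.000196). The DMSO mean of 5.67 lay only just above the guide, which limits this fold.

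Chrdl1 and Chrdl2 encode relatives of chordin with cysteine-rich domains that bind BMPs. Chrdl2 went from 5.04, 5.33 and 5.41 in DMSO, all under the background guide, to 6.15, 6.13 and 6.10 in FR, all above it. The log2 change was 0.86 (SE 0.10, adjusted p = 0.00012), and the rise was 1.39-fold with DMSO set to its guide of 5.65. That fold is not a lower bound, since the guide itself was higher in FR, at 5.92. Chrdl1 went from 4.91, 4.92 and 4.80 to 5.63, 5.59 and 5.56. The FR arrays of Chrdl1 agreed to within 0.03 (SD), well apart from DMSO, yet both groups stayed under the guide and no fold is given (log2 change 0.71, SE 0.08, adjusted p = 7.82e-05).

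Fst encodes follistatin, which binds activins most tightly and some BMPs less so. It was far above background, at 8.41, 8.25 and 8.38 in DMSO and 9.08, 8.96 and 8.87 in FR. The groups were 0.46 apart at their nearest arrays, and Fst rose 1.54-fold (log2 change 0.62, SE 0.09, adjusted p = 0.000447).

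Grem1 encodes gremlin 1, a cystine-knot antagonist of BMP2, BMP4 and BMP7. It read 11.62, 11.62 and 11.60 in DMSO and 11.63, 11.67 and 11.61 in FR, and the groups overlapped. Its log2 change was 0.02, with a 95% interval from -0.15 to 0.20 (adjusted p = 0.834), and -0.03 with arrays centred on their medians. A change within that 95% interval, in either direction, remains compatible with these 3 arrays per group.

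All 15 pairs of 95% intervals among Bmp6, Bmp7, Nog, Chrdl1, Chrdl2 and Fst overlapped. Overlap does not show that changes are alike, and differences between genes were not tested. The interval of Bmp5 overlapped 4 of these 6. The 3 ligand or antagonist genes with both group means under the background guide were Bmp2, Bmp5 and Chrdl1. The genes whose values over the 6 arrays lay closest to those of Bmp4, after each gene's mean was taken away, were Ahrr, Pde5a and Tafa1, with mean absolute differences of 0.04, 0.04 and 0.05. Pde5a encodes a cyclic GMP phosphodiesterase and Ahrr a repressor of the aryl hydrocarbon receptor. Their log2 changes were 1.55 for Ahrr, 1.47 for Pde5a and 1.44 for Tafa1. The likeness rests on 6 arrays in 2 groups that all these genes share.

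**Figure D2:**
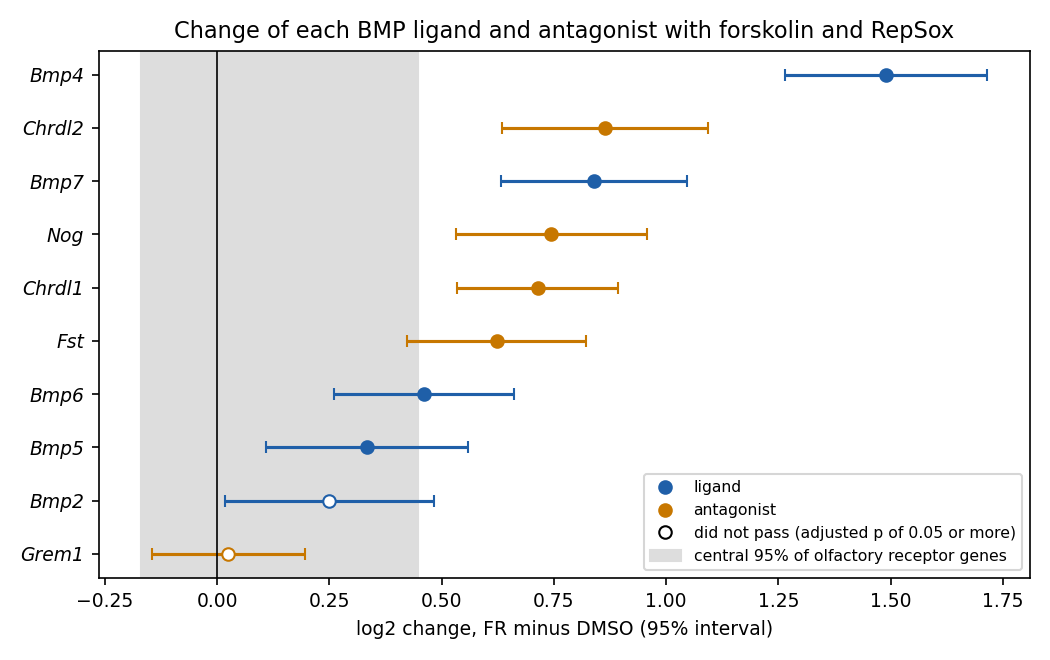
Log2 change (FR minus DMSO, x axis) of each of the 10 genes (y axis), with 95% intervals from limma on 3 arrays per group; filled points passed and open points did not, and the grey band spans the central 95% of changes of the olfactory receptor genes. Bmp4 at 1.49 stands to the right of all others, and Bmp2, Bmp5 and Grem1 have their point inside the band.

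Around these 10 genes, other ligands of the superfamily mostly did not pass. Of 20 further BMP, GDF and activin ligand genes tested, 2 rose and 0 fell, with a median log2 change of 0.12. Both group means of 9 of these 20 lay under the background guide, so a change of those 9 could be missed. Gdf10, which encodes a relative of BMP3, rose from 7.34 ± 0.08 to 8.61 ± 0.08, 2.42-fold (log2 change 1.28, adjusted p = 1.79e-06). Inhbb, the gene of an activin subunit whose dimers follistatin binds, rose from 7.26 ± 0.07 to 8.54 ± 0.07, also 2.42-fold (log2 change 1.27, adjusted p = 1.55e-06). Inhba, the other main activin subunit gene, had a log2 change of 0.08 (adjusted p = 0.5). The count of falls became 1 without DMSO replicate 3.

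Further extracellular modulators moved in both directions, with 5 of 14 higher and 1 lower (median log2 change 0.19). Sostdc1 encodes an inhibitor of BMP and Wnt signalling expressed in skin epithelium and the dermal papilla. It went from 5.35 ± 0.06 to 6.75 ± 0.32 (log2 change 1.40, adjusted p = 3.12e-05), 2.13-fold higher with DMSO set to its guide. Cer1, known as an antagonist gene of the early mouse embryo, went from 4.91 ± 0.09 to 6.22 ± 0.32 (log2 change 1.31, adjusted p = 5.5e-05). Its rise was 1.49-fold with DMSO set to its guide. As for Chrdl2, these folds of Sostdc1 and Cer1 are not lower bounds. The FR arrays of both genes were spread, with FR replicate 1 the lowest, at 6.38 for Sostdc1 and 5.86 for Cer1, the latter under the background guide. Bmper, whose product binds BMPs and can block or aid them, rose 1.71-fold (log2 change 0.77, adjusted p = 0.000145), and Nbl1, of the same protein family as Grem1, 1.40-fold. Fstl3, a follistatin-like activin binder, fell by 0.66 on the log2 scale (adjusted p = 0.000303), opposite in direction to Fst. Fstl1 rose by 0.26 (adjusted p = 0.0285). That call did not survive leaving out DMSO replicate 1, 2 or 3 or FR replicate 3, or centring on array medians, with adjusted p up to 0.0989.

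Proteases that mature the ligands or release them from antagonists changed in 6 of 7 cases, 4 higher and 2 lower (median log2 change 0.47). Tll1, which encodes a tolloid-like enzyme that cuts chordin, went from 6.84 ± 0.13 to 5.39 ± 0.16 and was at least 1.89-fold lower (log2 change -1.45, adjusted p = 3.07e-06). Bmp1, which despite its name encodes a tolloid family protease that also trims procollagen, rose by 0.47 (adjusted p = 0.00131), and Tll2 by 0.49 with both means under the background guide. Among proprotein convertases, which cut BMP precursors, Furin fell by 0.71 (adjusted p = 0.000206), Pcsk5 rose by 0.82 (adjusted p = 5.75e-05) and Pcsk6 by 0.53. The DMSO mean of Pcsk6, 5.49, lay under the background guide and its FR mean, 6.02, just above it.

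Of 13 BMP receptor and co-receptor genes, 4 fell and 2 rose (median log2 change -0.23), against 14.5% lower and 13.4% higher over all genes. Bmpr2, the type II receptor gene, read 10.19, 10.17 and 10.30 in DMSO and 9.64, 9.58 and 9.52 in FR, 1.56-fold lower (log2 change -0.64, adjusted p = 0.000217). Eng, which encodes the co-receptor endoglin, was 1.80-fold lower (log2 change -0.85, adjusted p = 0.000219). Bmpr1b, a type I receptor gene at the edge of background, fell by 0.42 (adjusted p = 0.0118; 0.0536 without DMSO replicate 2 and 0.0837 with ordinary variance), and Acvr1, the type I receptor gene used by BMP6 and BMP7, by 0.27 (adjusted p = 0.0394). The 2 that rose were Bambi, a decoy receptor gene (0.34), and Neo1, the neogenin gene (0.25). These last calls were fragile: the count of higher receptor genes was 0 without DMSO replicate 1, 2 or 3, without FR replicate 2 and with centring on array medians, and 1 without FR replicate 1 and with quantile normalization or ordinary variance. The call of Acvr1 was lost without each of DMSO replicate 1, 2 and 3 and FR replicate 2 and 3, with adjusted p up to 0.125, and with quantile normalization (0.0867), cyclic loess (0.0806) and ordinary variance (0.0605). The count of lower receptor genes was 2 without DMSO replicate 2 or with ordinary variance. It was 3 with quantile normalization or cyclic loess, and as high as 6 with centring on array medians.

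Of the 6 SMAD genes of the pathway, 1 fell, the inhibitory Smad7 (log2 change -0.44, adjusted p = 0.00982), and 0 rose. The call of Smad7 was lost with ordinary variance (adjusted p = 0.0834). Among 14 BMP target genes, 9 rose and 1 fell (median log2 change 0.39), against 13.4% higher and 14.5% lower over all genes. The count of rises was 7 with ordinary variance or without DMSO replicate 1. Among those that rose, Msx1 had both means under the background guide. The changes of Msx1 (0.36), Bambi (0.34) and Dlx3 (0.41) lay inside the central range of the olfactory receptor genes. Atoh8 went from 6.87 ± 0.11 to 8.18 ± 0.11, Id1 had a log2 change of 1.20, Id2 of 1.12 and Id3 of 0.72. The fall was again that of Smad7, which belongs to both lists. The direction of the target genes in these data was known when the list was made, so their count is not independent evidence of it.

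**Figure D3:**
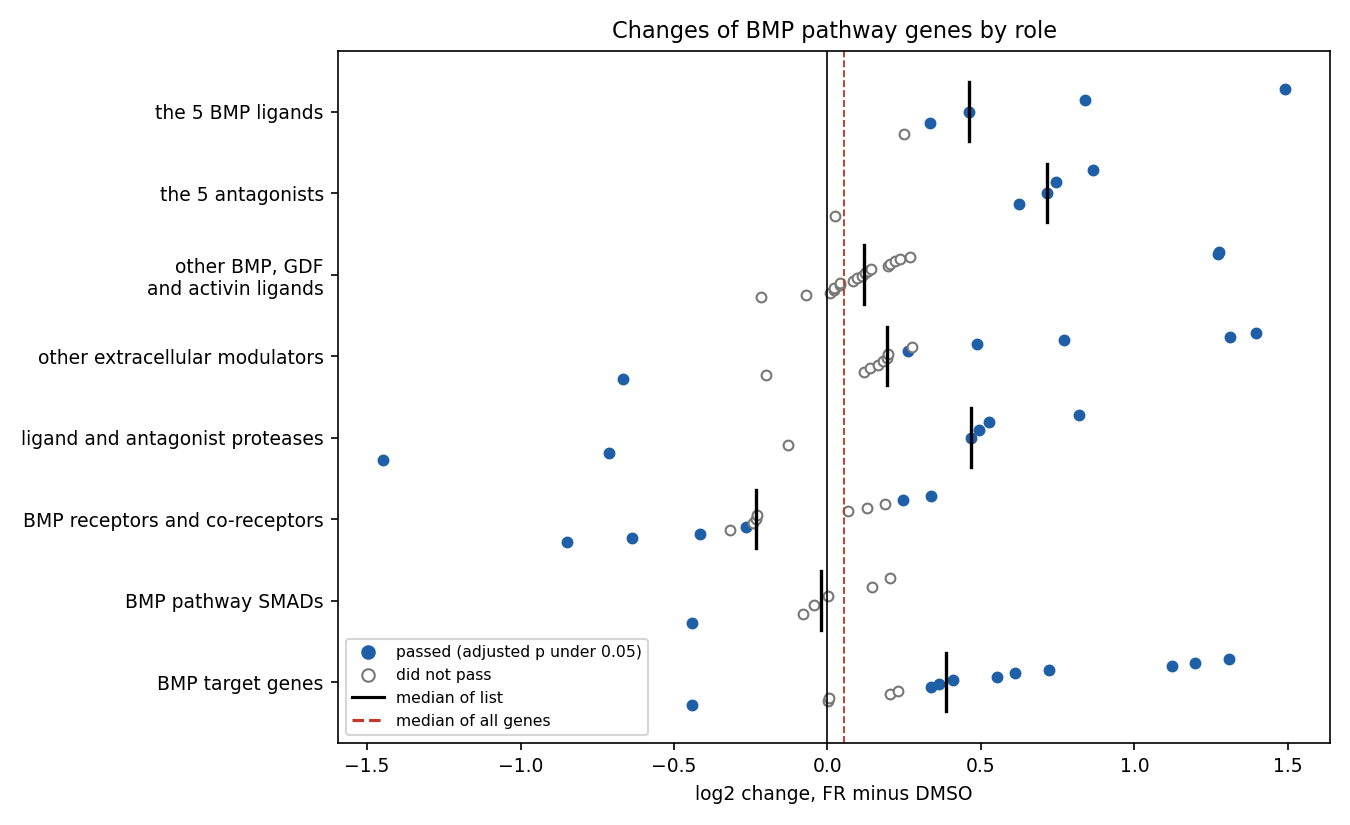
Log2 change (FR minus DMSO, x axis) of every tested gene of each BMP pathway list (y axis), 1 point per gene, filled where it passed; black bars are list medians and the dashed line is the median of all genes, 0.05. The 10 ligand and antagonist genes have no point below 0 (Grem1 lies at -0.03 with arrays centred on their medians), while the receptor list has its median at -0.23.

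Markers of cell types that neonatal skin cultures can hold moved alongside. All 12 fibroblast markers were above the background guide in both groups, with mean list levels of 10.78 to 10.83 in DMSO and 10.61 to 10.65 in FR, 4 higher and 7 lower. Of 19 keratinocyte markers 16 rose, and the mean list level went from between 5.97 and 6.05 in DMSO to between 6.96 and 7.09 in FR. Krt5, a basal keratinocyte gene, had a log2 change of 2.18. Krt1, Epcam and, among those that rose, Krt15 and Lamb3 were under the guide in both groups. Of 10 adipocyte markers 8 rose (6.54 to 6.56 in DMSO, 7.96 to 8.06 in FR), with Fabp4 at a log2 change of 2.44. Cidec and Lep were under the guide in both groups. Of 12 muscle cell markers 9 rose (5.72 to 5.80 in DMSO, 6.53 to 6.62 in FR), with Actc1 at 2.16. Des, Chrna1 and, among those that rose, Myf5 and Cdh15 were under the guide in both groups. Of 15 dermal papilla and condensate markers 7 rose and 1 fell (7.53 to 7.63 in DMSO, 7.99 to 8.13 in FR). Sox2, Sox18 and, among those that rose, Prom1 and Hhip were under the guide in both groups. Of 8 endothelial markers 3 rose (5.20 to 5.26 in DMSO, 5.49 to 5.52 in FR). Under the guide in both groups were 5 of the 8, including Pecam1, Kdr and, among those that rose, Tek and Emcn. Of 8 immune cell markers 2 rose (5.15 to 5.22 in DMSO, 5.26 to 5.40 in FR). Ptprc, Adgre1 and the 2 that rose, Cd74 and Fcer1g, were among 6 under the guide in both groups. Of 8 melanocyte markers, 4 rose and 1 fell (5.72 to 5.79 in DMSO, 5.89 to 5.96 in FR). Tyr, Dct and, among those that rose, Tyrp1 and Kit were under the guide in both groups. In bulk RNA, more cells of a type and more RNA per cell cannot be told apart, and the part of these shifts in the rises of the ligand and antagonist genes was not tested.

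**Figure D4:**
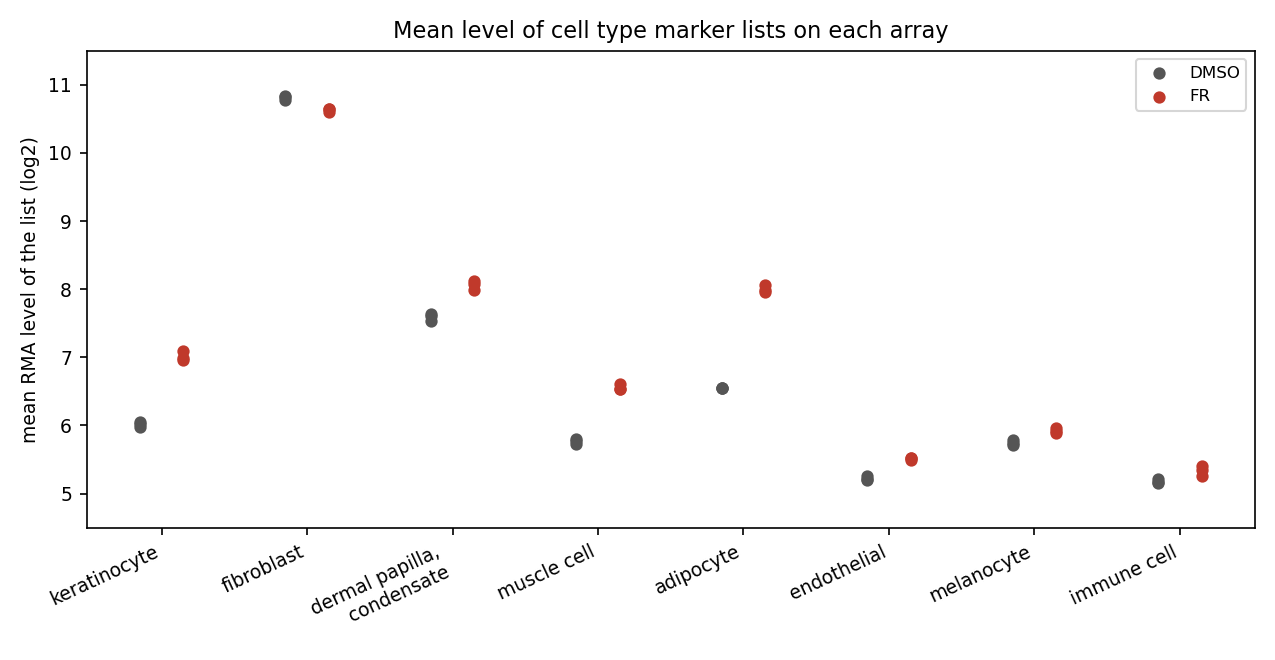
Mean RMA level (log2, y axis) of 8 cell type marker lists (x axis) on each of the 3 DMSO and 3 FR arrays, 1 point per array. Keratinocyte, adipocyte, muscle cell and dermal papilla lists are higher in FR, as are, by less, the endothelial, melanocyte and immune cell lists. The fibroblast list is slightly lower. Levels of different lists rest on different probe sets and are not comparable with each other.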

How the data were processed

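The deposited table holds log2 values of 35556 probe sets. The authors made them by RMA in the oligo package, per the submitters' processing notes; their versions are not given in the sources used. RMA usually corrects background, quantile-normalizes between arrays and summarises probes, which compresses small differences of dim probe sets. Scan batches were not analysed here.

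Probe sets with 1 symbol (21789) were used, those with several (1621) were left out, and the brightest stood for a gene. Gene identifiers of 21698 matched RefSeq's GRCm38.p6 table, with 0 symbols changed. FR minus DMSO was fitted with limma 3.58.1 under R 4.3.3 (lmFit, eBayes; group as the only term), two-sided, with Benjamini-Hochberg adjustment over all 19938 genes, and the script was tested on simulated data. No filter on dim values was used. The 10 genes, the lists and the background guide were chosen with earlier results of these data known. From each list, the text names up to 4 genes that passed, taken by size of change, and further list genes were named after their values were seen. A fold with a dim group set to its guide, or given as "at least", uses that group's own 95th percentile of the olfactory receptor genes. For rises it is not a lower bound, since that percentile was higher in FR. Some genes of the lists are not reported here.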

Additional observations from a re-analysis of the deposited data

How the results depend on the processing

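The log2 changes of Bmp4, Bmp6, Bmp7, Nog, Chrdl1, Chrdl2 and Fst kept their direction and stayed past the threshold under all alternatives that tested them, the highest adjusted p being 0.0348, for Bmp6. The number of the 10 genes called higher was 8, and 7 with quantile normalization, centring, cyclic loess or ordinary variance, each time through the loss of Bmp5; it was 7 to 8 with 1 array left out, and the number lower was 0 throughout. With dim genes filtered out it was 4, since Bmp2, Bmp5, Nog, Chrdl1 and Chrdl2 were then not tested. Grem1 turned sign, at -0.0313, with centring. The count over all genes was 5559, 3364 with ordinary variance and 4033 to 5914 with 1 array left out. The share of calls that were higher was 48% in the main setting, 35.3% with centring and 36.2% with the dim filter. Deviations of same-numbered arrays from their group means correlated with r of -0.07, 0.05 and -0.03, and those of other pairs from -0.08 to 0.12. So few arrays cannot decide whether the numbers pair them. With the replicate block, 4977 genes and 8 of the 10 were called, and Neo1, Bambi, Acvr1 and Fstl1 were not. The causes of these shifts were not tested. With no detection calls, values near background set the limit on Bmp2, Bmp5 and Chrdl1, and on the DMSO levels of Chrdl2, Nog and Bmp7. The log2 change of Bmp6, 0.46, lay just past the central range of the olfactory receptor genes, which ended at 0.45.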
